A study of Homo sapiens with 3 samples.

Results

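ACTN1 and ACTN4 encode the alpha-actinins of non-muscle cells, and the list of m6A regions from nuclear RNA of MDA-MB-231 cells held 87 regions in the pair, 59 in ACTN1 and 28 in ACTN4, of 41836 in all. A region was counted in a gene when its midpoint lay within limits fixed to the nearest kb in the hg19 genome, whichever strand it was on. These limits were chr14:69340 to 69447 kb for ACTN1, which is read from the minus strand, and chr19:39138 to 39223 kb for ACTN4, which is read from the plus strand. MDA-MB-231 is an established human breast cancer cell line with a mesenchymal, invasive character. Its nuclear RNA was captured with an antibody against m6A in 2 libraries and with rabbit IgG as the control in 1 library, all from untreated cells of the same line. The labels do not say whether the 2 m6A libraries came from separate cultures.

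The deposited list gives each region a chromosome, start, end and strand and a score of 1, with no value for any single library. It therefore shows neither the read depth, nor the enrichment over IgG, nor how far the m6A libraries differed, and the values below come without a replicate error. Regions of 1 list are not replicates of a condition, so the paralogs are compared by description with no test. Intervals are exact 95% intervals that cover counting error only. They treat regions as independent, which neighbouring regions of 1 transcript are not. The members were chosen by the deposited positions of the regions, and the number of regions in ACTN1 was known when the locus was picked, so both are given as a description. ACTN1 and ACTN4 RNA levels were not measured by this list, so more RNA and more m6A per RNA cannot be told apart.

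Alpha-actinins are rod-shaped proteins that pair head to tail and cross-link actin filaments, with an actin-binding head, a rod of spectrin repeats and a calcium-binding EF-hand end. ACTN1 is concentrated along stress fibres and at focal adhesions, where it joins actin to integrins through partners such as vinculin and zyxin. ACTN4 is found along actin in the cell body and at the moving edge, and has also been described in the nucleus. The mark m6A is a methyl group on adenosine, placed on RNA in the nucleus mainly by the METTL3 and METTL14 complex, often at the A of the letters GGACT. In messenger RNA it is known to be frequent near stop codons and in long exons, and nuclear RNA also holds the introns of precursors that have not been spliced.

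The coding letters of the paralogs are shown first because GGACT is the best known context of the mark. The letters of the m6A regions themselves are not shown, since no hg19 genome was used here. In GENCODE release 29 the reference transcripts ACTN1-201 and ACTN4-201 carry coding sequences of 2679 and 2736 nt. Their alignment had 2677 paired positions, of which 2208 (82.5%) were identical. The motif GGACT, searched on the strand of the RNA alone, occurred 9 times in the ACTN1 coding sequence and 8 times in that of ACTN4, or 3.36 and 2.92 times per kb. Over the longest coding sequence of each of 19646 protein-coding genes it occurred 1.11 times per kb, and over the 926 of 2500 to 2900 nt 1.16 times per kb, where 93.7% held it at least once. The shorter GGAC, which every GGACT also contains, occurred 32 times in ACTN1 and 31 times in ACTN4 (11.9 and 11.3 per kb, against 4.95 per kb over all coding sequences).

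At 4 aligned positions both paralogs hold GGACT, shown here in capitals with 10 bases on each side. Names give the position of the first capital, counted from 1 at the A of the start codon.
ACTN1 at 171: acatcgaagaGGACTtccgggatgg
ACTN4 at 228: acattgatgaGGACTtccgagacgg
ACTN1 at 942: agaagctggaGGACTtccgggacta
ACTN4 at 999: agaagctggaGGACTtccgcgacta
ACTN1 at 1226: cacgaggcctGGACTgacggcaaag
ACTN4 at 1283: cacgaggcctGGACTgacgggaagg
ACTN1 at 1260: tgcgacagaaGGACTatgagaccgc
ACTN4 at 1317: tgaagcaccgGGACTacgagacggc

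The paralogs differ near the stop codon. The last GGACT of the ACTN1 coding sequence ends 41 nt before the stop codon, and the aligned 5 bases of ACTN4, capitals below, do not spell it. The last GGACT of ACTN4 ends 635 nt before the stop codon, where ACTN1 in turn lacks it.
ACTN1 at 2631: caggtgctctGGACTacatgtcctt
ACTN4 at 2688: ccggtgccctCGACTacaagtcctt
ACTN4 at 2094: gcagcatcgtGGACTacaagcccaa
ACTN1 at 2037: agagcatcgtCAACTacaagccaaa
Beyond the coding part, the transcript of ACTN1 has no GGACT, and that of ACTN4 has 2, both in a 3′ untranslated region of 2151 nt, against 716 nt in ACTN1. These are letters of the spliced messages and were not matched to any m6A region.

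Both genes carried many m6A regions, and ACTN1 carried more per kb. ACTN1 held 59 regions in 107 kb, or 0.551 regions per kb (0.42 to 0.711). ACTN4 held 28 regions in 85 kb, or 0.329 regions per kb (0.219 to 0.476). The ratio of ACTN1 to ACTN4 was 1.67 (1.05 to 2.73). The mean spacing was thus 1 region every 1.81 kb in ACTN1 and every 3.04 kb in ACTN4. The share of sequence inside a region differed less, at 3.0% of ACTN1 and 2.40% of ACTN4, a ratio of 1.25, as the mean width was 54.5 nt in ACTN1 and 72.8 nt in ACTN4. Among regions wider than the list median of 45 nt alone, the ratio of regions per kb was 1.17, and its interval of 0.631 to 2.22 includes equality.

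All m6A regions of both genes were on the strand from which the gene is read. In ACTN1, 59 of 59 were on the minus strand, and in ACTN4, 28 of 28 were on the plus strand. Regions on the opposite strand numbered 0 in each gene, and the exact 95% intervals of the share on the gene's own strand begin at 93.9% for ACTN1 and at 87.7% for ACTN4. The genes run in opposite directions along their chromosomes, and the deposited strand followed the direction of each.

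**Figure D1:**
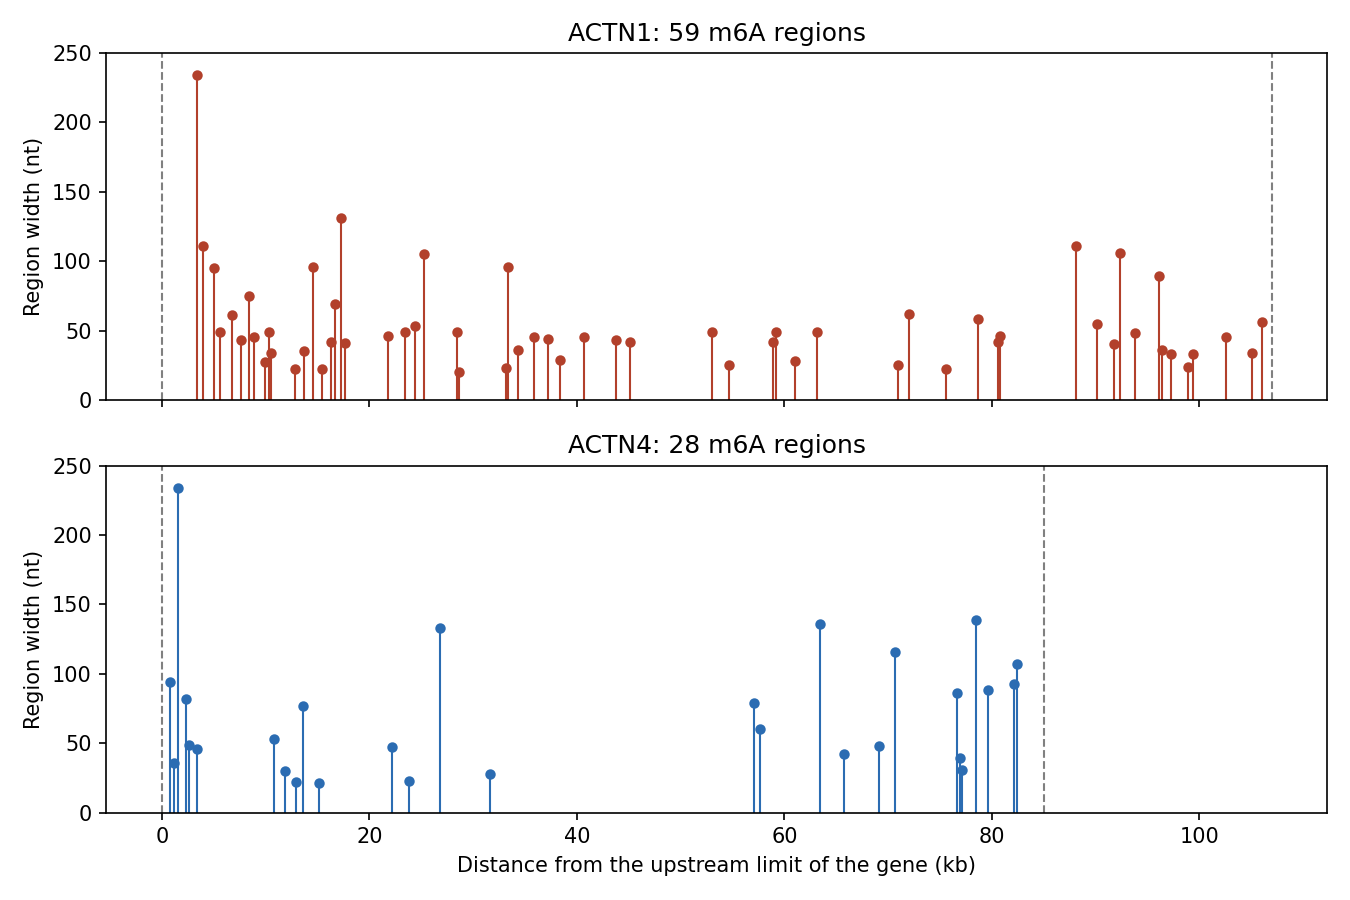
Each stem is 1 m6A region, placed by the distance of its midpoint from the upstream limit of the gene in kb (horizontal axis) and drawn as high as its width in nt (vertical axis), for ACTN1 above and ACTN4 below. Dashed lines mark the limits of each gene. The widest region of each gene, of 234 nt, stands near its upstream end, and ACTN4 has an empty stretch of 25.4 kb in its middle.

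In both genes the outer 20 kb on each side held more m6A regions per kb than the stretch between. In the first 20 kb ACTN1 had 19 regions (0.95 per kb) and ACTN4 had 11 (0.55 per kb). In the last 20 kb ACTN1 had 13 (0.65 per kb) and ACTN4 had 10 (0.50 per kb). The stretch between held 27 regions over 67 kb in ACTN1 (0.403 per kb) and 7 over 45 kb in ACTN4 (0.156 per kb). Both end stretches combined were therefore 1.99 times as dense as the stretch between in ACTN1 (1.15 to 3.44) and 3.38 times in ACTN4 (1.38 to 9.40). The split into ends and middle was not planned and was chosen after seeing the data, so these intervals describe the layout and test nothing. With end stretches of 10 kb the ratios were 1.48 in ACTN1 (0.767 to 2.72, which includes equality) and 2.82 in ACTN4 (1.23 to 6.35). With end stretches of 30 kb they were 1.78 in ACTN1 (1.00 to 3.30) and 11.3 in ACTN4, where 1 region was left between the ends.

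Counted in steps of 10 kb from the upstream limit, ACTN1 had 9, 10, 6, 6, 3, 4, 2, 4, 3 and 9 regions, and 3 in the last 7 kb. Every step of ACTN1 held at least 2 regions. ACTN4 had 6, 5, 3, 1, 0, 2, 3 and 6 regions, and 2 in the last 5 kb. The step of ACTN4 from 40 to 50 kb was empty.

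**Figure D2:**
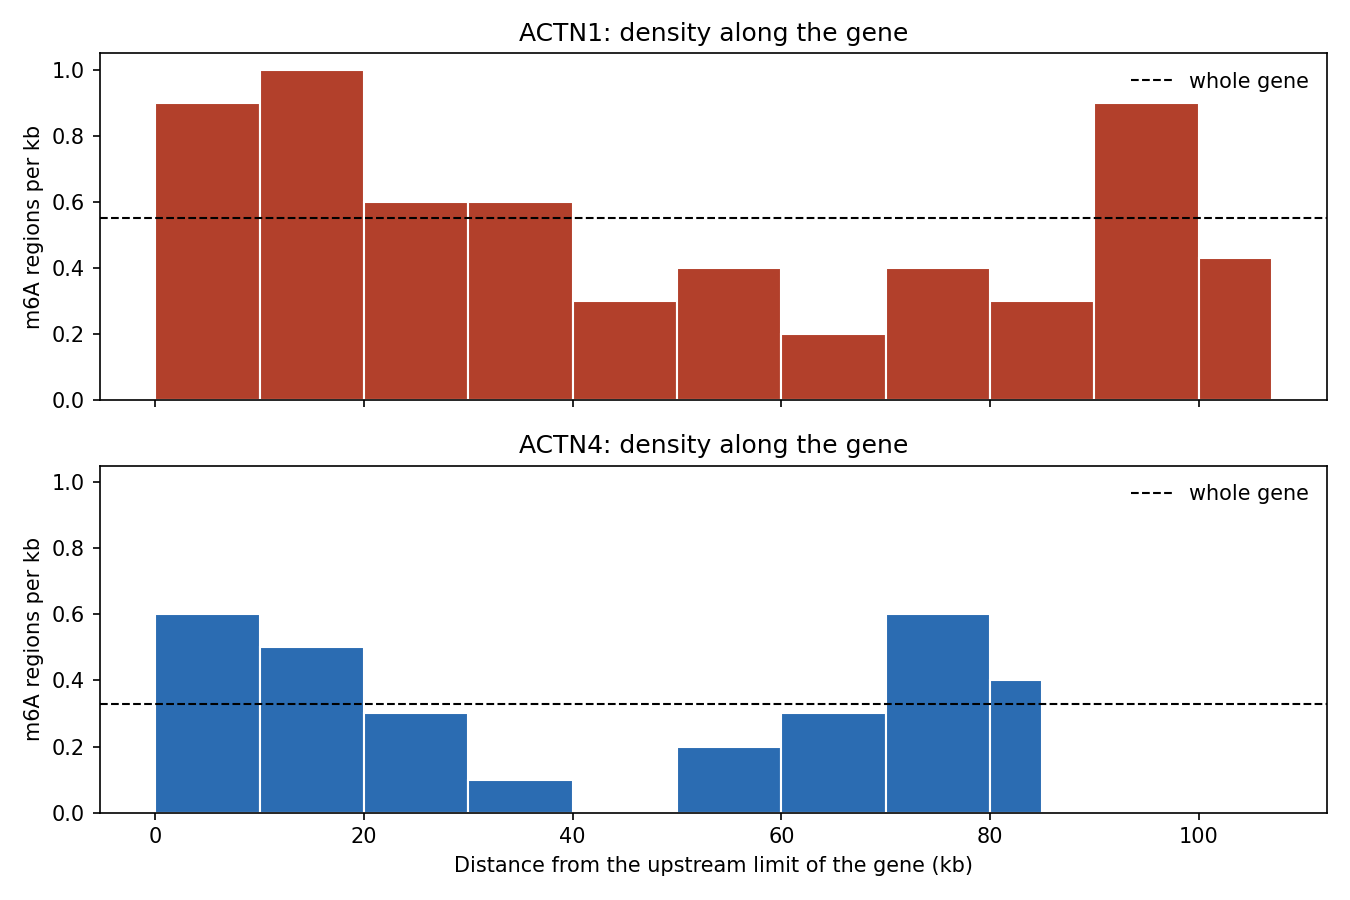
Bars give the number of m6A regions per kb (vertical axis) in consecutive steps of 10 kb from the upstream limit (horizontal axis, kb) in ACTN1 above and ACTN4 below, with a shorter last step, and the dashed line gives the value for the whole gene. ACTN1 reaches 1.0 per kb between 10 and 20 kb and again 0.90 per kb between 90 and 100 kb, and ACTN4 reaches 0.60 per kb near both ends and 0 between 40 and 50 kb.

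On a scale from 0 at the upstream limit to 1 at the downstream limit, the median position was 0.348 in ACTN1 and 0.343 in ACTN4. These medians hide unlike shapes. When each gene was cut into 3 equal stretches, ACTN1 had 28, 13 and 18 regions from upstream to downstream, and ACTN4 had 14, 1 and 13. The regions of ACTN4 thus formed separate upstream and downstream groups, and its median moved to 0.698 when the limits were narrowed by 5 kb on each side. Among ACTN4 regions wider than the list median the median position was 0.671.

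The upstream part of both genes is mostly intron in the annotation. In GENCODE release 29, which uses the GRCh38 genome, the first intron measures 53.3 kb in ACTN1-201 and 52.7 kb in ACTN4-201, and both transcripts have 21 exons. The first 50 kb from the upstream limit held 34 m6A regions in ACTN1 (57.6% of its regions, 0.68 per kb) and 15 in ACTN4 (53.6%, 0.30 per kb). The rest held 25 in ACTN1 (0.439 per kb) and 13 in ACTN4 (0.371 per kb). The ratio of ACTN1 to ACTN4 was 2.27 in the first 50 kb and 1.18 after it, a contrast that was not tested. Exon positions in hg19 were not used here, so no single region was placed in an exon or an intron.

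The spacing of the regions in ACTN1 nevertheless limits how many exons they can share. Exons made up 3.59% of the ACTN1 gene by the reference transcript, and the longest measured 875 nt. Regions farther apart than that cannot lie in the same exon. Joined up to that distance, the ACTN1 regions formed 34 groups, which is 13 more than the transcript has exons. With the exons of all basic GENCODE transcripts, merged into 23 blocks of at most 1004 nt, there were 31 groups, 8 more than the blocks. At least that many groups of ACTN1 regions touch no exon of these models, if exon lengths are the same in hg19. For ACTN4, whose longest exon has 2310 nt, the regions formed 10 groups, fewer than its 21 exons, so this count sets no such limit.

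The upstream ends of both genes carried a cluster with the widest m6A region of the gene. In ACTN1 the first region from the upstream end was also its widest, 234 nt at chr14:69443493-69443726, with its midpoint 3.39 kb from the upstream limit. The next region, at chr14:69442967-69443077, measured 111 nt. In ACTN4 the first region lay at chr19:39138755-39138848 and measured 94 nt, and the widest, 234 nt at chr19:39139457-39139690, was the third, 1.57 kb from the upstream limit. Both widest regions had the same width by the deposited positions, a width held by 11 regions of the list and exceeded by 1.09% of it.

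When regions up to 1 kb apart were joined, the first 4 regions of ACTN1 formed a cluster of 2.31 kb, from chr14:69441420 to 69443726, of which they covered 21.2%. The first 6 regions of ACTN4 formed its largest cluster by number, within 2.66 kb from chr19:39138755 to 39141412, and covered 20.4% of it. The largest cluster of ACTN1 by number held 8 regions over 4.87 kb, from chr14:69429287 to 69434156, and covered 9.40% of it. Smaller clusters were denser in both genes, up to 45.8% covered by a pair in ACTN1 and 51.4% by the last pair in ACTN4.

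Further wide regions were spread unevenly. After the widest, the next 4 in ACTN1 measured 131 nt (chr14:69429686-69429816), 111 nt (chr14:69442967-69443077), 111 nt (chr14:69358842-69358952) and 106 nt (chr14:69354559-69354664). In ACTN4 they measured 139 nt (chr19:39216423-39216561), 136 nt (chr19:39201353-39201488), 133 nt (chr19:39164715-39164847) and 116 nt (chr19:39208577-39208692). In ACTN4, 4 of the 6 regions over 100 nt lay in the most downstream of the 3 equal stretches, where the median width was 86 nt, against 48 nt in the most upstream one. In ACTN1, 4 of the 6 lay in the most upstream stretch and 2 in the most downstream one, with median widths of 49 and 45.5 nt.

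At the downstream ends, the last region of ACTN1 lay at chr14:69340907-69340962 and measured 56 nt, 0.934 kb before the limit. The last region of ACTN4, at chr19:39220333-39220439, measured 107 nt and lay 2.61 kb before the limit. Neither region was matched to a stop codon or an untranslated exon.

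The m6A regions of ACTN4 had a higher median width than those of ACTN1. The median width was 45 nt in ACTN1 (quartiles 34.5 and 57 nt, range 20 to 234 nt) and 56.5 nt in ACTN4 (quartiles 38.3 and 93.3 nt, range 21 to 234 nt). The 95% intervals of the medians from order statistics, 42 to 49 nt in ACTN1 and 42 to 88 nt in ACTN4, overlap. With the limits narrowed by 5 kb on each side the median was 45 nt in ACTN1 and 50.5 nt in ACTN4. Regions of 75 nt or more, a limit chosen after the widths were seen, made up 11 of 59 in ACTN1 (18.6%) and 13 of 28 in ACTN4 (46.4%), against 16.6% of the whole list. Regions over 100 nt made up 10.2% of ACTN1 and 21.4% of ACTN4, with 6 regions in each, against 10.3% of the list.

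Set beside regions of their own chromosome and strand, ACTN1 was close to them in median width and ACTN4 was above them. The 852 minus-strand regions of chromosome 14 had a median width of 46 nt and 10.2% over 100 nt. The 704 plus-strand regions of chromosome 19 had a median width of 44 nt and 9.52% over 100 nt. The direction of the difference between the paralogs was opposite to that of the strands in the whole list, where minus-strand regions had a median of 46 nt and plus-strand regions 44 nt. Both comparison sets include the regions of the gene itself, and the difference was not tested.

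**Figure D3:**
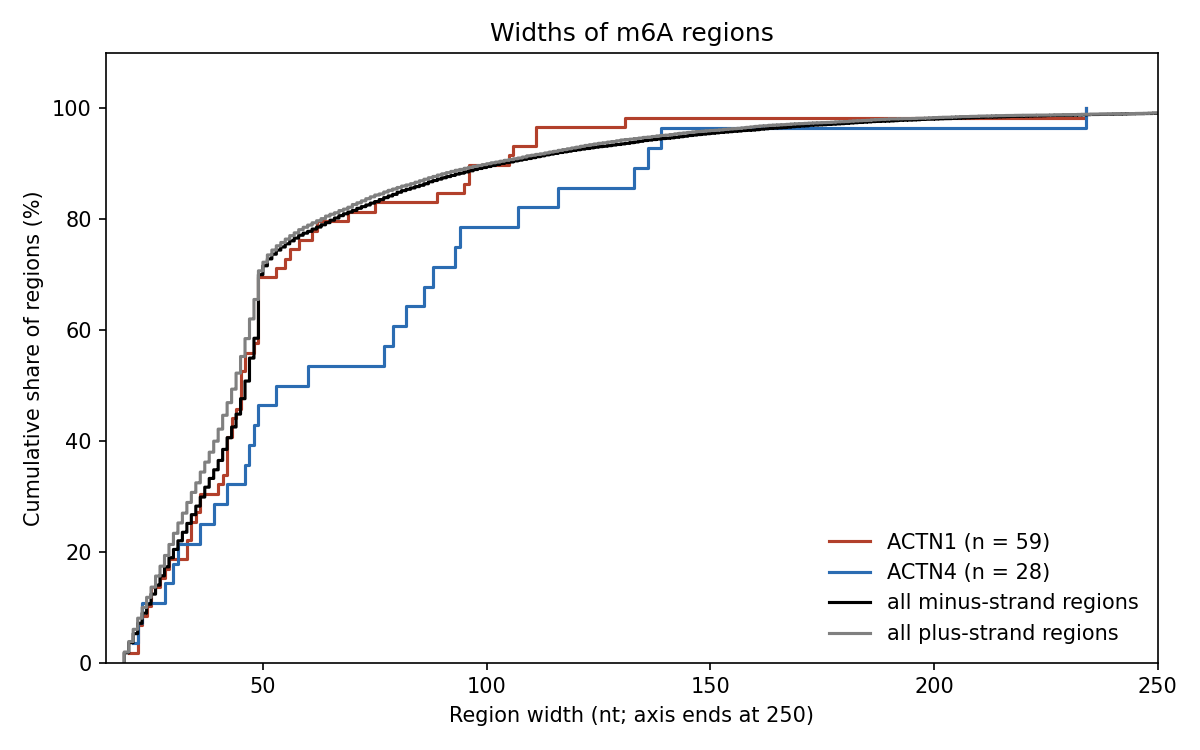
Cumulative share of m6A regions in percent (vertical axis) up to each width in nt (horizontal axis, ending at 250 nt) for ACTN1, ACTN4, all minus-strand regions and all plus-strand regions. The ACTN1 curve follows the curves of the list, and the ACTN4 curve lies to the right of them between 45 nt and 139 nt, with 46.4% of its regions at 75 nt or more.

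Neighbouring regions in both genes were closer together than over the whole list, with a few long empty stretches. The median gap was 1.05 kb in ACTN1 and 1.30 kb in ACTN4, against 4.69 kb over all same-strand neighbours of the list. Gaps of at most 1 kb were 27 of 58 in ACTN1 (46.6%) and 10 of 27 in ACTN4 (37.0%), against 24.6% in the list. The list values also count gaps between genes, whereas those of ACTN1 and ACTN4 lie within a gene, so this contrast is partly built in. The closest pair of ACTN1 lay 104 nt apart, at chr14:69366215-69366260 and chr14:69366365-69366406, and that of ACTN4 lay 173 nt apart, at chr19:39214881-39214919 and chr19:39215093-39215123. The smallest same-strand gap anywhere in the list was 101 nt. Each region is named as merged in the deposited file, and the part of such merging in widths and gaps was not tested.

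The longest empty stretch differed in length between the genes. In ACTN4 it measured 25.4 kb, from chr19:39169596 to 39195007, and the next longest 7.34 kb. In ACTN1 the longest measured 7.79 kb, from chr14:69394044 to 69401828, followed by 7.73 and 7.26 kb. Read coverage over these stretches was not analysed here.

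Joined up to 10 kb apart on the same strand, the 59 regions of ACTN1 formed 1 chain of 103 kb, and those of ACTN4 formed 2 chains of 15 and 13 regions, split by the empty stretch. The chains of ACTN4 ranked 248th and 336th by number among 16073 chains, and that of ACTN1 ranked 10th, level with 1 other. Among the 143 chains of 20 or more regions its density was in the middle, with 0.574 regions per kb and a median over these chains of 0.571. Its median gap of 1.05 kb was in the middle as well, with 72 chains higher and 70 lower. The chain was among the longest, with 9 chains longer than its 103 kb. Its regions leaned upstream, with 50.8% in the most upstream of 3 equal stretches of the chain, where 23 chains had a higher share and the median was 38.0%. Its median width of 45 nt was on the low side, with 103 of the 143 chains higher. The chains nearest in number held 60 regions on chr3:65891078-66023947 and on chr6:56391233-56520574, 59 on chr9:97767446-97872303 and 58 on chr2:87755431-87817915. Their densities were 0.452, 0.464, 0.563 and 0.928 regions per kb in that order, so 1 of the 4 was denser than ACTN1.

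Joined up to 50 kb apart, the 28 regions of ACTN4 also formed 1 chain, and both genes could be set beside 358 chains of 20 or more regions. By number ACTN1 then ranked 17th and ACTN4 153rd among all 9110 chains, each level with others. Of the 358 chains, 43 were denser than ACTN1 with 0.574 regions per kb and 102 denser than ACTN4 with 0.343, where the median was 0.246. The median gap was longer in 271 chains than in ACTN1 and in 245 chains than in ACTN4. Joining up to 50 kb lets longer gaps fall inside a chain, while the chain of ACTN1 was the same at 10 kb. Beside the 143 chains at 10 kb, 70 were denser than ACTN1 and 72 had a longer median gap. The density and gap ranks of ACTN1 therefore depend on the joining distance. ACTN4 formed no chain of 20 or more regions at 10 kb, so its ranks cannot be compared in this way. ACTN4 stood high in median width: 14 of the 358 chains had one above its 56.5 nt, whereas 235 were above the 45 nt of ACTN1. Other measures of width were less extreme in ACTN4, with 54 chains higher in the share over 100 nt and 119 higher in the widest region. ACTN4 also had few regions in its middle. Its share in the middle of 3 equal stretches of the chain was 3.57%, and 6 of the 358 chains had a lower one, against 18.6% and 89 chains for ACTN1 and a median of 27.3%. The longest gap of ACTN4, 25.4 kb, was near the median of 26.1 kb, with 183 of the 358 chains higher. That of ACTN1, 7.79 kb, had 322 chains higher. Beside the 143 chains joined up to 10 kb apart it was near the middle, with 67 higher and 75 lower. These ranks describe the list, and the regions of the genes are part of it.

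**Figure D4:**
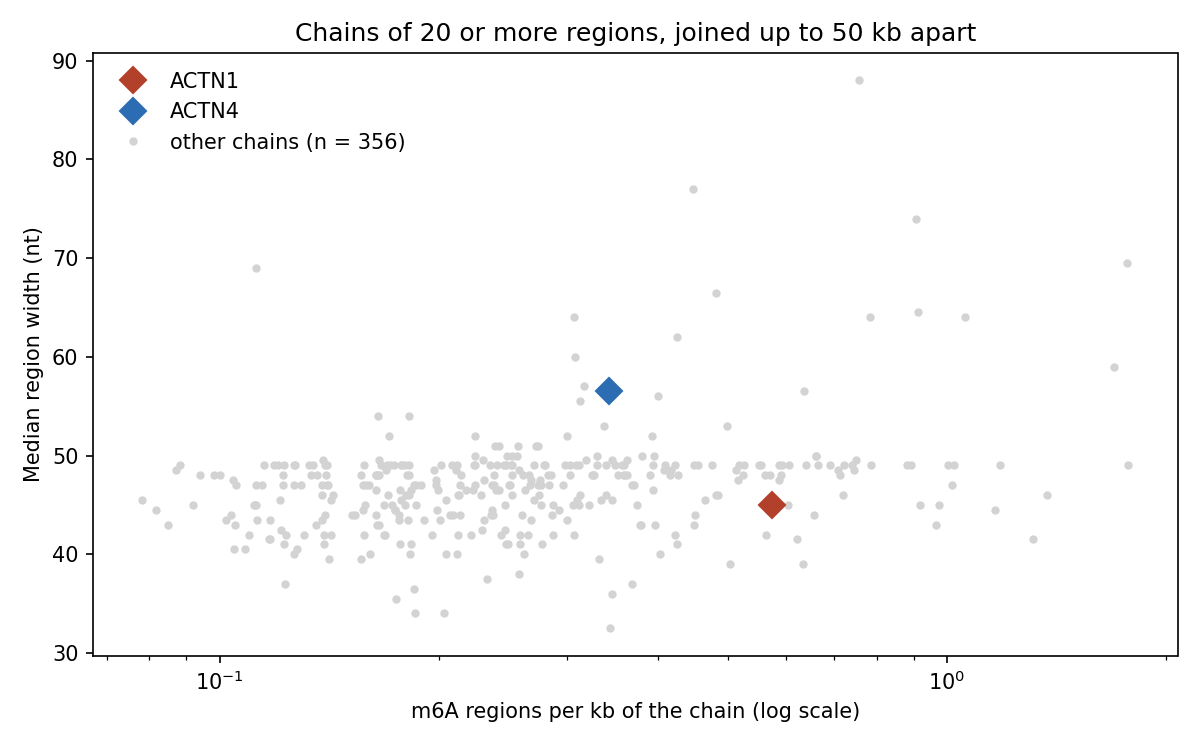
Each point is a chain of 20 or more m6A regions joined up to 50 kb apart on the same strand, by regions per kb of the chain (horizontal axis, log scale) and median region width in nt (vertical axis). Diamonds mark ACTN1, at 0.574 regions per kb and 45 nt, and ACTN4, at 0.343 regions per kb and 56.5 nt, and grey points the 356 other chains.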

How the data were processed

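Per the labels' protocols, nuclear RNA of MDA-MB-231 cells was immunoprecipitated with a rabbit antibody against m6A or rabbit IgG, released with free m6A nucleoside and made into libraries with ScriptSeq V2. Per the submitters' processing notes, Bowtie2 was the aligner and hg19 the genome build. How regions were called, at which thresholds, how IgG entered and how both m6A libraries became 1 list is not given in the sources used here, although each deposited name includes "merged". The deposited score is 1 for every region and was not used.

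From the deposited starts and ends, width was taken as end minus start of the record, and positions are printed in hg19, counted from 1. Gene limits were fixed to the nearest kb. The members, limits and lists were chosen with earlier results of these data known. Named regions are the 5 widest, the first and last, the closest pair and the longest empty stretch of each gene. Chains join same-strand regions up to 10 kb apart (50 kb where stated). GENCODE release 29 (GRCh38) gave lengths and transcript letters, and no coordinate was compared between builds. Coding sequences were aligned end to end with Biopython 1.88. The list of other adhesion genes and motifs within regions were not analysed here because no hg19 annotation or genome was used. Counting functions were tested on simulated regions. Python 3.11.15, numpy 2.4.6, pandas 2.3.3 and scipy 1.17.1 were used.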

Additional observations from a re-analysis of the deposited data

How the results depend on the processing

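Of 55 planned comparisons with an alternative setting, 52 stayed within the counting interval of the reported value or, for counts, within 1.5 times. All 3 others came from keeping regions wider than the list median, which by construction leaves fewer and wider regions: ACTN1 then had 28 regions, a median width of 59.5 nt and a median gap of 2094 nt. Under the same setting ACTN4 had 19 regions. The ratio of regions per kb, ACTN1 over ACTN4, ran from 1.17 to 2.09 over the 5 alternatives. The shares on the strand of the gene were 100% in every alternative run, which was fixed because neither gene had an opposite-strand region. Counting by overlap or widening by 5 kb could add no region, as the nearest outside either gene lay 63.7 kb from its limit. Intervals of ACTN4 were also wide. Its median positions of 0.698 with narrowed limits and 0.671 among wider regions alone both counted as within 0.152 to 0.813. The count of 52 is therefore a weak measure of stability. The end stretches and the joining distances were not planned and were chosen after seeing the data. The cut of each gene at 50 kb from its upstream limit was not planned either. The ends were 1.48 and 2.82 times as dense as the stretch between in ACTN1 and ACTN4 with end stretches of 10 kb, and 1.78 and 11.3 times with 30 kb, where 1 region of ACTN4 was left between. The largest chain of ACTN1 held 34 regions when joined up to 5 kb apart, and that of ACTN4 held 7 at 5 kb and 28 at 50 kb. Leaving out a library and a stricter score were not run, since values per library and scores that differ are absent from the list. No paired analysis was possible because the columns carry no library. With no read counts, depth and enrichment over IgG remain unknown.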

Other observations

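The m6A regions of both genes ended with the genes. Downstream of ACTN1 the nearest region on either strand lay 63.7 kb beyond the limit, at chr14:69276298-69276334, and upstream 71.8 kb beyond it, at chr14:69518802-69518871. For ACTN4 the nearest region lay 104 kb beyond the downstream limit, at chr19:39327163-39327187 on the minus strand, and 264 kb beyond the upstream limit, at chr19:38873913-38873953. The nearest regions outside were thus farther from each gene than the longest gap inside it, 7.79 kb in ACTN1 and 25.4 kb in ACTN4.

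The width of 49 nt, the most frequent of the whole list, was held by 7 regions of ACTN1 (11.9%) and 1 of ACTN4 (3.57%). Among all regions it was held by 11.5% on the minus strand and 5.17% on the plus strand, so each gene was near the share of its own strand. With 1 such region in ACTN4, no difference between the paralogs can be read from this width. What sets this width was not tested.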
